A study of Mus musculus with 6 samples.

Results

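The determination front cells of mouse stembryos were compared between the anterior and the posterior part of structures that had been cut in 2 before single-cell RNA-seq. Members were the cells that the deposited annotation assigned to the cluster named Determination front, which were 268 of 3944 cells in the anterior library and 1140 of 7887 cells in the posterior library. Together they made up 1408 of the 2257 cells of this cluster and of the 26968 cells in the series. Members were taken by cluster name and library. Whether the cut played a part in how the study named its clusters is not stated.

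Stembryos, also called gastruloids, are aggregates of mouse embryonic stem cells that elongate and form trunk tissues after a pulse of the Wnt agonist Chiron. Both parts came from wild-type stembryos made from mES cells and collected 120 h after aggregation, and gave 1 library each, from pooled structures. Whole wild-type stembryos gave 2 further libraries at 120 h (615 and 207 determination front cells) and 2 at 96 h (27 and 0 cells). Structures that had not elongated at 120 h had been discarded by the study, so all values at this time describe elongated stembryos. With 1 library for each part there was no replicate check on any difference between them, no test was made, and each interval given is a 95% interval that covers counting error only.

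In the elongating trunk, the presomitic mesoderm matures from posterior to anterior while Wnt and FGF signals fade and retinoic acid increases. The determination front is the level at which these cells stop oscillating with the segmentation clock and fix the position of the next segment border. There the transcription factor Mesp2 is switched on, and its target Ripply2 shuts it down again as the somite forms.

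Mesp2 and Ripply2 are among the 3 genes with the lowest ratios described below, and the sequence before their start sites is shown for that reason. Each run holds the 250 bases upstream of the RefSeq transcription start in build GRCm38.p6, on the plus strand, at chr7:79810477-79810726 for Mesp2 and chr9:87015287-87015536 for Ripply2. Capitals mark the T-box core TCACAC on either strand, the binding core of factors such as Tbx6, which acts in presomitic mesoderm.
Mesp2: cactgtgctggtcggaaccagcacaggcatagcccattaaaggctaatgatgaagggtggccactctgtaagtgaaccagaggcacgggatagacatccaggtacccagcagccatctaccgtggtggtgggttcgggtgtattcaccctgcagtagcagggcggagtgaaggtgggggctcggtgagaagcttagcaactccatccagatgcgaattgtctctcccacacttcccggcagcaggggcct
Ripply2: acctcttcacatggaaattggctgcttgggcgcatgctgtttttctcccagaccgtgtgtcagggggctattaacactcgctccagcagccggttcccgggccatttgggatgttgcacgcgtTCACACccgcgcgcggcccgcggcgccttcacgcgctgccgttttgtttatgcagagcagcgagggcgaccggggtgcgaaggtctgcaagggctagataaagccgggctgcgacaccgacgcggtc
The core was found 1 time before Ripply2 and 0 times before Mesp2, and 12.3% of 32851 mouse promoter windows of this length held it. The E-box CANNTG, the motif bound by basic helix-loop-helix factors such as Mesp2, was found 1 time before Mesp2 and 2 times before Ripply2, against 66.2% of all windows with at least 1. The Notch effector core TGGGAA was found before neither gene and in 21.6% of windows. A match describes these letters only and is not a binding site.

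The anterior library held 4508420 UMIs in its determination front cells, with a median of 16237 UMIs and 4020 genes per cell, and the posterior library held 16649722 UMIs, with medians of 12938 UMIs and 3578 genes. Both had been made in batch 2 with V3 chemistry, whereas the whole 120 h libraries came from batch 1 with V3 (replicate 1) and batch 4 with V3.1 (replicate 2). No determination front barcode occurred in both parts, and 9 barcodes of all cells did. By the deposited phase calls, 29.9% of anterior and 42.6% of posterior cells were in G2/M, and 29.5% and 20.9% were in S phase. None of 21 S phase and none of 22 G2/M genes tested was past 2-fold between the parts, against 2.37% of all tested genes. The part that phase plays in the other differences was not tested by a model, and counts within each phase are given with the processing limits.

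The cluster took up 6.80% of anterior cells (95% interval 6.03 to 7.63%, Clopper-Pearson) and 14.5% of posterior cells (13.7 to 15.2%), against 12.6% and 7.72% in the whole libraries. The cells around it differed. The anterior library consisted of 1881 Somite A and 1757 Somite B cells with 37 spinal cord cells, and had no Late PSM or NMPs C cells. The posterior library held 1269 Late PSM cells (presomitic mesoderm), 1251 NMPs C cells, 3840 spinal cord cells and 68 Somite A cells. Of the clusters in these libraries, the determination front was the only mesodermal one with over 200 cells on both sides of the cut.

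The markers listed for the cluster were checked on each side. Of 14 determination front markers, 9 reached 10 CPM (UMIs scaled to a common total in each library) in anterior cells and 13 in posterior cells. Markers of paraxial mesoderm were abundant on both sides. Tcf15 (paraxis, needed for somite epithelialization) had 795 CPM in the anterior and 895 CPM in the posterior part, and Meox1, a somite homeobox gene, had 686 and 614 CPM. Mesp1, Mesp2 and Ripply2 were each under 2.5 CPM in anterior cells. In the anterior cells these 3 genes, which define the front, were nearly absent, and the data there go against the label in this respect. The cells are called determination front below because the annotation calls them so.

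Counts were summed over the determination front cells of each part and scaled to CPM, and 7649 genes with at least 10 CPM in 1 part were compared. A ratio past 2-fold was found for 181 genes (2.37%), of which 77 (1.01%) were higher and 104 (1.36%) were lower in the anterior part. The median log2 ratio of all tested genes was -0.02. The same ratio between the whole 120 h libraries, replicate 2 over replicate 1, was past 2-fold for 281 of 8058 genes (3.49%), of which 234 (2.90%) were higher and 47 (0.583%) were lower in replicate 2. Libraries of 1 kind that differed in batch, chemistry and depth were thus apart for a larger share of genes than the parts were. The sizes at the extreme differed, since log2 ratios of genes at 30 CPM or more ran between -6.32 and 2.59 for the parts and between -2.69 and 2.80 for the whole pair. Whole stembryos hold both parts. Both whole libraries lay between them for 40 of the 77 genes higher in the anterior part and 56 of the 104 lower ones. The same held for 470 of all 7649 tested genes (6.14%). A gap of over 2-fold leaves more room for such values than the gap of most genes, so these counts are a description only.

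**Figure D1:**
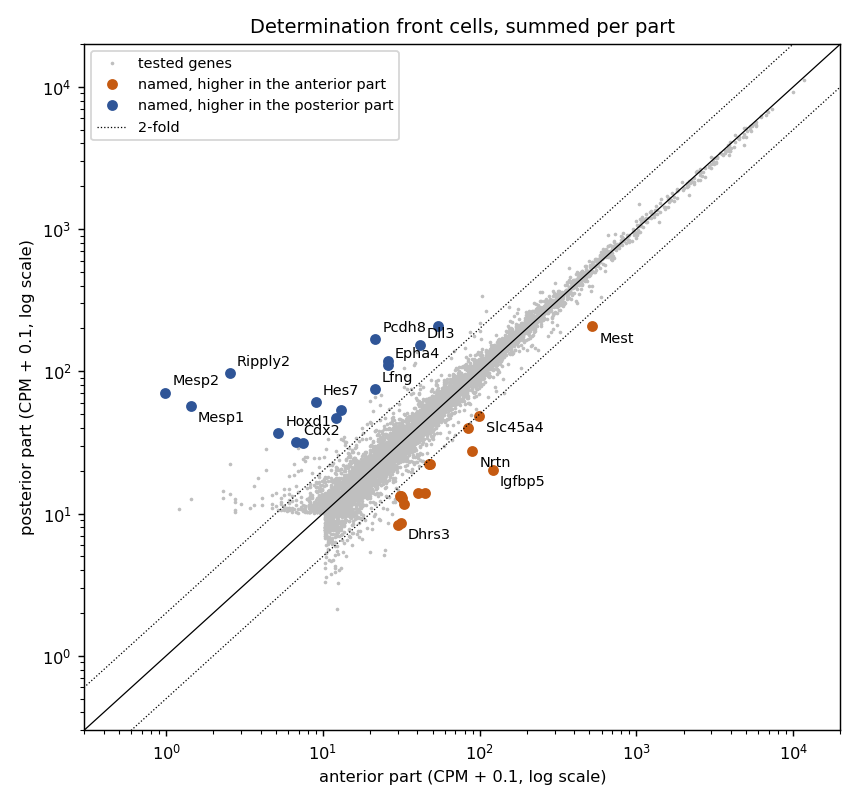
CPM in determination front cells of the anterior part (horizontal) and the posterior part (vertical), both plus 0.1 on log scales, for 7649 tested genes (grey) and the 30 named genes (coloured). Dotted lines mark 2-fold. Mesp2, Mesp1 and Ripply2 lie farthest from the diagonal, at 0.887, 1.33 and 2.44 CPM in the anterior part.

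The genes of the forming segment border were those that differed most. Mesp2 had 4 UMIs in anterior cells (0.887 CPM) and 1177 UMIs in posterior cells (70.7 CPM), which is 79.7-fold lower in the anterior part (95% interval 31.0 to 293). Its neighbour Mesp1, a related factor that lies 16939 bases away in the opposite direction on chromosome 7 (79792241 to 79793788, GRCm38), had 1.33 CPM in anterior and 57.3 CPM in posterior cells, 43.1-fold lower (19.7 to 118). Ripply2, whose upstream sequence is printed above, had 2.44 and 97.2 CPM, 39.9-fold lower (22.2 to 80.0). All 3 genes were thus within a few counts of absence on the anterior side. In whole stembryos, Mesp2 was at 18.4 and 24.5 CPM, Mesp1 at 18.8 and 34.9 CPM and Ripply2 at 91.8 and 82.0 CPM. All 6 of these values lay between the parts.

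These genes came from a minority of cells. After each cell had been thinned to 6000 UMIs, which kept 265 anterior and 1139 posterior cells, 9 anterior cells (3.40%, 95% interval 1.56 to 6.35%) and 296 posterior cells (26.0%, 23.5 to 28.6%) had a UMI of Mesp1, Mesp2 or Ripply2. Mesp2 alone was found in 0.755% of anterior and 12.3% of posterior cells, or 1.49% and 15.5% without thinning. Spinal cord cells, which should lack Mesp2, had it in 0% of 30 anterior cells, which allows a share of up to 10.0%, and in 0.469% of 3837 posterior cells, at median depths of 9300 and 14073.5 UMIs. With 30 anterior spinal cord cells, this comparison could not tell the anterior share of Mesp2 apart from background, whatever its source. The posterior share was far above that of posterior spinal cord cells. Mesp2 was not particular to the front on the posterior side, since Late PSM cells of that library had 70.0 CPM of Mesp2 and 120 CPM of Mesp1. Ripply2 was at 10.9 CPM in Late PSM and 2.36 CPM (2 UMIs) in Somite A cells of the posterior part. It thus stood highest in the front among these clusters.

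**Figure D2:**
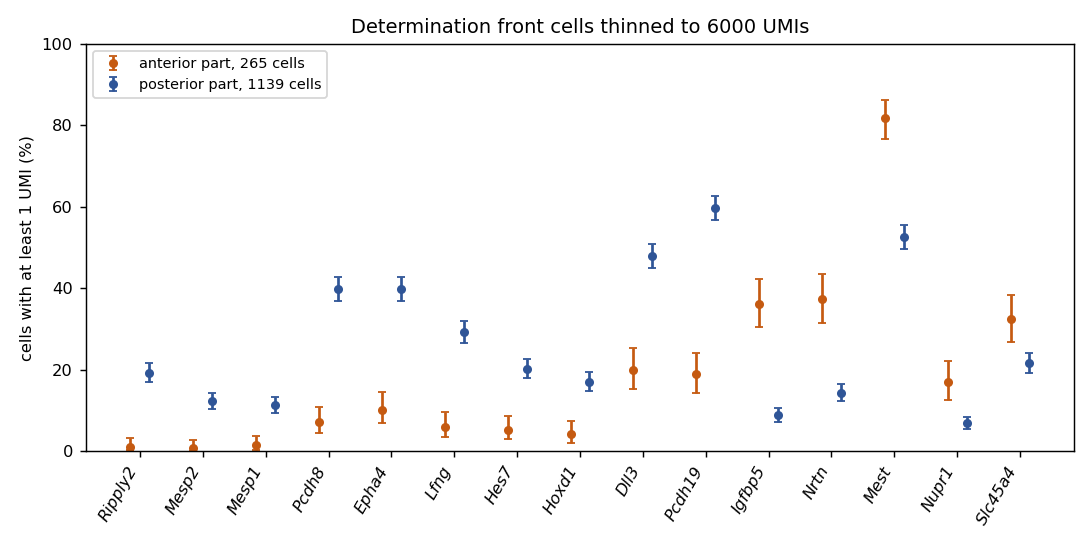
Percent of determination front cells with at least 1 UMI of each gene after thinning to 6000 UMIs, in the anterior part (orange, 265 cells) and the posterior part (blue, 1139 cells). Bars are exact 95% binomial intervals. Pcdh8 was found in 7.17% of anterior and 39.8% of posterior cells, and Igfbp5 in 36.2% and 8.78%.

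Of the segment boundary list, 10 of 14 genes were tested and 7 were past 2-fold lower in the anterior part (background 1.36%), with a median log2 ratio of -1.90. Pcdh8, the paraxial protocadherin that sorts cells at the segment border, had 21.5 CPM in anterior and 168 CPM in posterior cells, 7.83-fold lower (6.39 to 9.69). It was close to absent in anterior Somite A cells (0.422 CPM) and at 20.1 CPM in posterior Late PSM cells. Epha4, an ephrin receptor of the border, had 25.7 and 110 CPM, 4.29-fold lower (3.56 to 5.22). Cer1, a secreted antagonist of Nodal and BMP, had 32.6 and 106 CPM, and Snai1, a repressor in epithelial to mesenchymal transition, had 7.76 and 25.0 CPM. The 3 members within 2-fold were Efnb2, the ephrin ligand of the border, at 64.1 and 88.4 CPM, fibronectin Fn1 at 124 and 153 CPM, and Cdh11, a cadherin of mesenchyme, at 43.3 and 23.5 CPM. Adhesion genes of the border were thus found on both sides of the 2-fold line.

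The presomitic mesoderm list had 16 tested genes, none higher in the anterior part at 2-fold (background 1.01%) and 11 lower (background 1.36%), with a median log2 ratio of -1.62. All 16 ratios were below 1. Pcdh19, a protocadherin, had 54.3 CPM in anterior and 209 CPM in posterior cells, and Notch1, the receptor, had 110 and 264 CPM. Both whole libraries were above the posterior part for Notch1 (269 and 291 CPM). Rspo3, an enhancer of Wnt signalling, had 33.3 and 92.1 CPM, and Tbx6, the T-box factor that specifies paraxial mesoderm, had 7.54 and 23.5 CPM. Tbx6 was at 8.90 and 4.71 CPM in the whole libraries, near or under the anterior value, so the parts did not bracket it. Members that stay on in young somites were nearer to each other: Foxc1 had 103 and 129 CPM and Foxc2 had 173 and 258 CPM.

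The segmentation clock is a set of genes that are switched on and off in waves by Notch feedback. Of 14 tested Notch and clock genes, 7 were past 2-fold lower in the anterior part (background 1.36%) and none higher (background 1.01%). Hes7, the oscillating repressor at the core of the clock, had 8.87 CPM in anterior and 60.2 CPM in posterior cells, 6.79-fold lower (4.95 to 9.56). Hes7 was 296 CPM in Late PSM, 244 CPM in NMPs C and 80.3 CPM in spinal cord cells of the posterior library, all above its front cells. The share of cells with Hes7 at equal depth was 20.2% in the posterior front and 31.0% in posterior spinal cord, so the posterior front share did not exceed it. Whether RNA released from those cells adds to the posterior front value of Hes7 was not tested.

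Lfng, the glycosyltransferase that modifies Notch, gave a different picture. It had 21.3 CPM in anterior and 74.9 CPM in posterior front cells, 3.52-fold lower (2.86 to 4.38), with 28.1 CPM in Late PSM and 2.35 CPM in posterior spinal cord. The ligand gene Dll3 had 41.3 and 154 CPM, 3.72-fold lower (3.21 to 4.34), and Dll1 had 21.5 and 65.5 CPM. The Notch target Nrarp had 39.5 and 135 CPM, and Hes5 had 20.0 and 62.1 CPM. Not every Notch target followed: Hes1 had 95.6 and 74.5 CPM, Hey1 had 47.2 and 52.4 CPM, and the receptor gene Notch3 had 17.7 and 11.2 CPM.

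**Figure D3:**
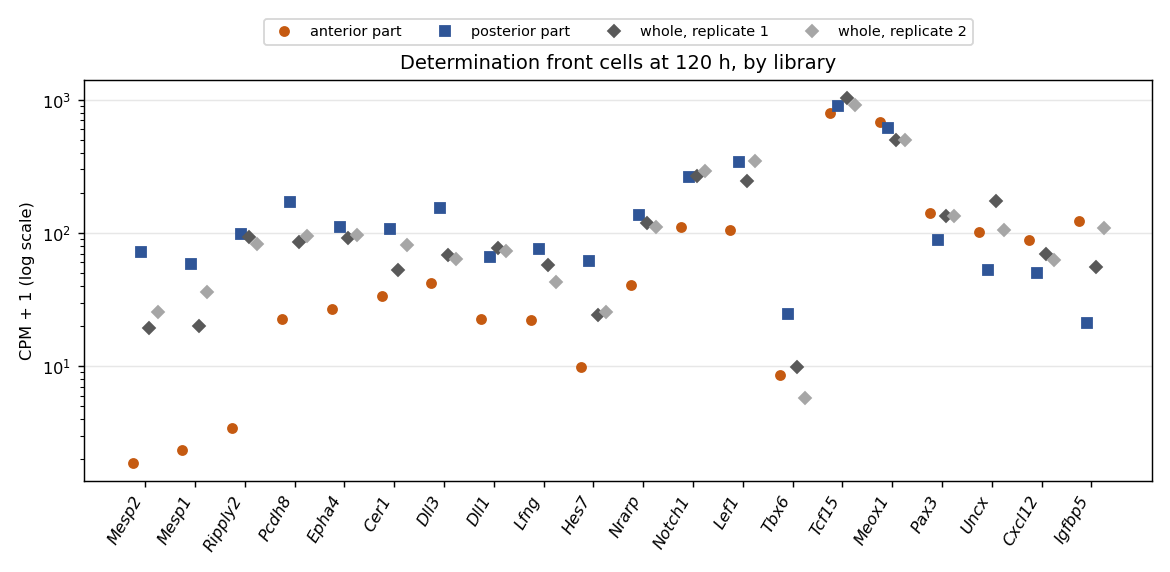
CPM plus 1 (log scale) of 20 genes of the segment border, clock and somite in determination front cells of the 4 libraries at 120 h: anterior part (orange circles), posterior part (blue squares) and both whole libraries (grey diamonds). From Mesp2 through Tbx6 the anterior value is under the posterior value for each gene, Tcf15 and Meox1 are close in all 4 libraries, and Igfbp5 has 121 CPM in the anterior part against 20.1 CPM in the posterior part.

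Posterior Wnt and FGF signals keep presomitic cells immature. Of 11 tested Wnt response genes, 3 were past 2-fold lower in the anterior part (background 1.36%) and none higher (background 1.01%). The lower ones were Lef1, the transcription factor that acts with beta-catenin, at 103 and 339 CPM, T (brachyury) at 2.66 and 12.0 CPM and Myc at 4.66 and 11.5 CPM. The feedback gene Axin2 had 16.0 and 28.9 CPM and cyclin Ccnd1 had 258 and 311 CPM. Of 12 tested FGF genes, 2 were past 2-fold lower (background 1.36%). These were the receptor gene Fgfr1 at 86.5 and 188 CPM and the antagonist Spry2 at 12.4 and 25.8 CPM. The FGF targets Dusp6 (27.9 and 47.3 CPM) and Etv4 (46.6 and 59.8 CPM) were within 2-fold. Lef1 in posterior front cells was above its level in Late PSM (220 CPM), NMPs C (68.0 CPM) and spinal cord (43.7 CPM) of the same library.

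Of 12 tested tail bud genes, 4 were past 2-fold lower in the anterior part, none was higher (background 1.36% and 1.01%) and 8 were within 2-fold, with a median log2 ratio of -0.63. Of the 4, Cdx2, a homeobox factor of the growth zone, had 6.65 CPM in anterior and 31.7 CPM in posterior cells, 4.77-fold lower (3.30 to 7.13), Sox2 had 4.21 and 20.2 CPM, T had the values above and the ephrin receptor gene Epha5 had 1.11 and 10.6 CPM. Each is far more abundant in other cells of the posterior library, with Cdx2 at 481 CPM in NMPs C and Sox2 at 222 CPM in spinal cord. The 68 Somite A cells of the posterior library carried Cdx2 at 36.6 CPM, Sox2 at 14.2 CPM and Epha5 at 10.6 CPM, levels near those of its front cells. In Somite A cells of the anterior library the same genes were at 2.80, 1.73 and 0.997 CPM. The difference in Cdx2, Sox2 and Epha5 thus followed the library in both clusters, and the part played by RNA released from posterior tail bud and spinal cord cells was not tested. T was at 2.36 CPM in posterior Somite A cells, where 1 UMI is 1.18 CPM, so this match was not seen for T but rests on few counts. The sizes of these ratios depended on the cells and depth used. With cells over 1.5 times the mean UMI count left out, the log2 ratio was -1.12 for Cdx2 (main -2.25) and -1.43 for Sox2 (main -2.26). With each cell thinned to 6000 UMIs, it was -1.03 for T (main -2.17).

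Crabp2, a cellular retinoic acid binding protein, had 25.7 CPM in anterior and 119 CPM in posterior front cells, 4.62-fold lower (3.83 to 5.62), beside 670 CPM in the 37 anterior and 600 CPM in the 3840 posterior spinal cord cells. It was found in 41.0% of posterior front cells and 93.1% of posterior spinal cord cells at equal depth. In Somite A, Crabp2 was at 35.6 CPM in the anterior and 86.3 CPM in the posterior library, so its difference followed the library there too. Whether RNA released from other cells adds to the posterior front value of Crabp2 was not tested. Of 10 tested retinoic acid genes, 1 (Crabp2) was past 2-fold lower in the anterior part (background 1.36%) and 2 were higher (background 1.01%). Dhrs3, the retinaldehyde reductase that is induced by retinoic acid and limits it, had 31.3 and 8.53 CPM, 3.67-fold higher (2.88 to 4.66), and Nr2f1, a nuclear receptor, had 12.6 and 3.90 CPM. The synthesizing enzyme Aldh1a2 had 61.4 and 88.7 CPM. Dhrs3 was at 48.0 CPM in anterior and 40.2 CPM in posterior Somite A cells, and at 7.20 CPM in anterior spinal cord.

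Hox genes encode the factors of anterior to posterior identity and are numbered by their order in each of 4 clusters. None of the 24 tested Hox genes was past 2-fold higher in the anterior part, against a background of 1.01%. Of 13 tested genes of paralogs 5 to 9, 6 were past 2-fold lower (background 1.36%). These were Hoxd9 (4.21 and 28.1 CPM), Hoxa9 (2.44 and 13.5 CPM), Hoxc9 (6.88 and 28.6 CPM), Hoxc6 (8.65 and 24.5 CPM), Hoxc8 (10.4 and 28.2 CPM) and Hoxd8 (14.0 and 31.9 CPM). Other genes of HoxA and HoxB were close on both sides: Hoxb9 had 151 and 145 CPM, Hoxa7 had 165 and 174 CPM and Hoxb8 had 67.2 and 77.7 CPM. The 4 genes of paralog 9 thus split, with 3 over 4-fold lower in the anterior part and Hoxb9 at a ratio of 1.04 (0.956 to 1.14).

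Both whole libraries had more Hoxa9 (38.0 and 23.6 CPM), Hoxc9 (55.7 and 29.2 CPM), Hoxc6 (58.3 and 36.7 CPM) and Hoxc8 (71.5 and 44.3 CPM) than the posterior part, so for these genes the whole stembryos did not lie between the parts. Hoxc8 and Hoxc9 were at 186 and 211 CPM in posterior NMPs C and at 30.7 and 18.9 CPM in posterior Somite A, against 2.19 and 0.806 CPM in anterior Somite A. As for Cdx2, their posterior front level was within 2-fold of that of Somite A in the same library. Hoxc8 and Hoxd8 did not stay past 2-fold under each alternative, with log2 ratios up to -0.76 and -0.57. Hoxd9 was at 9.46 CPM in posterior Somite A, under its front level, and Hoxd8 was at 5.91 CPM there. Genes of paralogs 10 to 13 had 0 UMIs in anterior and 135 UMIs in posterior front cells, of which Hoxc10 made up 107 (6.43 CPM, at least 9.66-fold lower in the anterior part against a floor of 3 counts). None of these reached 10 CPM, and Hoxc10 was at 2.36 CPM in posterior Somite A (1 UMI is 1.18 CPM there) and 97.0 CPM in NMPs C.

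Hoxd1 had a larger ratio than its tested neighbours in HoxD up to paralog 4. It had 23 UMIs in anterior cells (5.10 CPM) and 608 in posterior cells (36.5 CPM), 7.16-fold lower (4.73 to 11.4), while Hoxd3 had 14.0 and 21.4 CPM and Hoxd4 had 53.9 and 86.6 CPM. In the posterior library Hoxd1 was at 9.20 CPM in Late PSM, 8.92 CPM in NMPs C and 5.05 CPM in spinal cord. It was at 2.36 CPM (2 UMIs) in Somite A, and each value was under its front level. The whole libraries had 29.6 and 31.6 CPM of Hoxd1 in front cells, both between the parts. It was found in 4.15% of anterior and 17.0% of posterior cells at equal depth, against 3.33% and 3.44% of spinal cord cells. Hoxb1 was the other gene of paralogs 1 to 4 past 2-fold lower among 11 tested (background 1.36%), at 36.6 and 75.6 CPM.

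**Figure D4:**
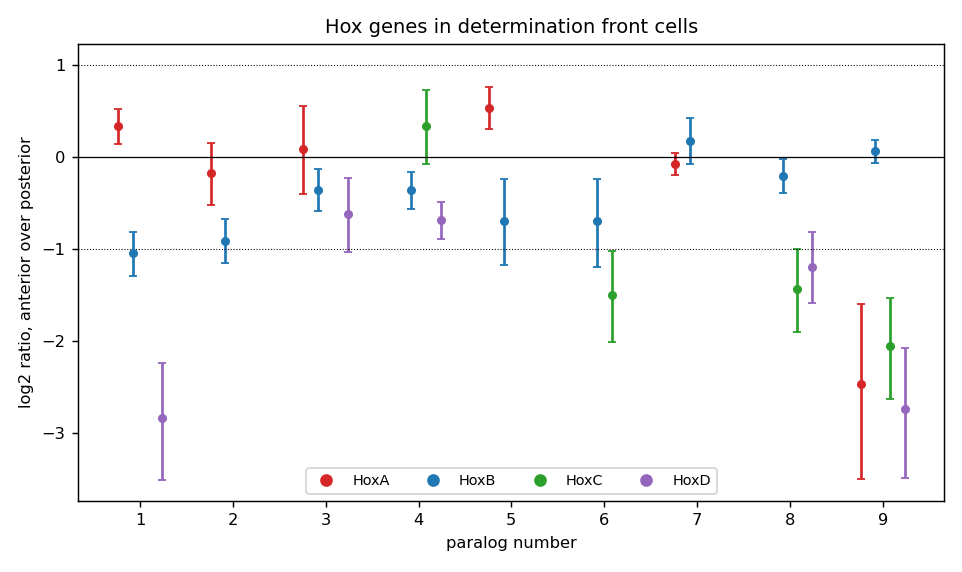
Log2 ratio of CPM, anterior over posterior part, of the 24 tested Hox genes in determination front cells by paralog number, with 95% intervals for counting error and colours for the 4 clusters. Dotted lines mark 2-fold. Hoxd1, Hoxa9, Hoxc9 and Hoxd9 lie under -2, and Hoxb9, at 0.06, does not follow its paralogs.

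On the anterior side, Igfbp5, a secreted binding protein of insulin-like growth factors (chr1:72857932-72874884 in GRCm38), had the greatest ratio. It had 121 CPM in anterior and 20.1 CPM in posterior front cells, 6.03-fold higher (5.25 to 6.93). In the whole libraries it was at 54.8 and 108 CPM, both between the parts. It was higher in the anterior somite clusters, at 567 CPM in Somite A and 1170 CPM in Somite B, and the 37 anterior spinal cord cells had 492 CPM. At equal depth 36.2% of anterior front cells had a UMI of Igfbp5 and 70.0% of 30 anterior spinal cord cells did, so the front share did not exceed that of cells of another type. Somite A also had more Igfbp5 in the anterior library, at 567 CPM against 124 CPM in the posterior one, a ratio of 4.57.

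The same limit touched others. Mest, an imprinted gene expressed from the paternal allele, had 521 and 207 CPM, 2.51-fold higher (2.39 to 2.65), with 857 CPM in anterior spinal cord cells. Nrtn, a ligand of the GDNF family, had 89.2 and 27.6 CPM, with 144 CPM in those cells. For Igfbp5, Nrtn and Mest, 3 of the 15 named genes higher in the anterior part, the share of front cells with a UMI did not exceed that of anterior spinal cord cells. Spinal cord cells of the posterior library had 108, 12.6 and 412 CPM of these genes. They thus cannot serve as a measure of background for Igfbp5 and Mest. Whether RNA released from other cells adds to the anterior front values was not tested. For the other 12 named genes the front share was above the spinal cord share, with anterior spinal cord resting on 30 cells.

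Among those 12, the Dishevelled-binding protein gene Dact2 had 32.6 CPM in anterior and 11.7 CPM in posterior cells, and Bbs9, a subunit of the ciliary BBSome, had 30.2 and 8.23 CPM, 3.67-fold higher (2.87 to 4.68). The secreted factor Serpinf1 had 40.1 and 13.8 CPM, the growth factor gene Bmp3 had 31.5 and 13.3 CPM, and the actin-binding gene Ablim1 had 31.1 and 13.3 CPM. Glipr2 (47.0 and 22.1 CPM), the carbonic anhydrase gene Car14 (84.5 and 39.9 CPM) and Slc45a4 (98.9 and 48.3 CPM) had smaller ratios. For 9 of the 15 genes anterior Somite A cells had more than anterior front cells. For 8 of the 15 both whole libraries lay between the parts, against 6.14% of all tested genes, a count that the choice of large ratios favours.

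For 6 of the 15 genes anterior cells were lower in Somite A, and for 4 of these the counting interval of the Somite A ratio lay below 1. Nupr1, a stress-induced nuclear protein gene, had 44.8 CPM in anterior and 13.9 CPM in posterior front cells, but 9.86 and 20.1 CPM in Somite A. Slc45a4 had 29.5 and 95.8 CPM in Somite A. Fst, the activin antagonist follistatin, had 31.7 and 12.7 CPM in the front but 34.2 and 68.6 CPM in Somite A. Bbc3, the apoptosis gene also known as PUMA, had 48.1 and 22.3 CPM in the front but 23.7 and 46.1 CPM in Somite A. In front cells of the whole libraries Fst was at 40.2 and 59.8 CPM, above both parts. Whole replicate 2 had 18.8 CPM of Bbc3, under the posterior part, and 105 CPM of Slc45a4, above the anterior part. Nupr1 lay between the parts in both whole libraries. The other 2 were Ablim1, with 23.1 and 31.9 CPM in Somite A, and Glipr2, with 14.4 and 18.9 CPM, and their intervals reached past 1.

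**Figure D5:**
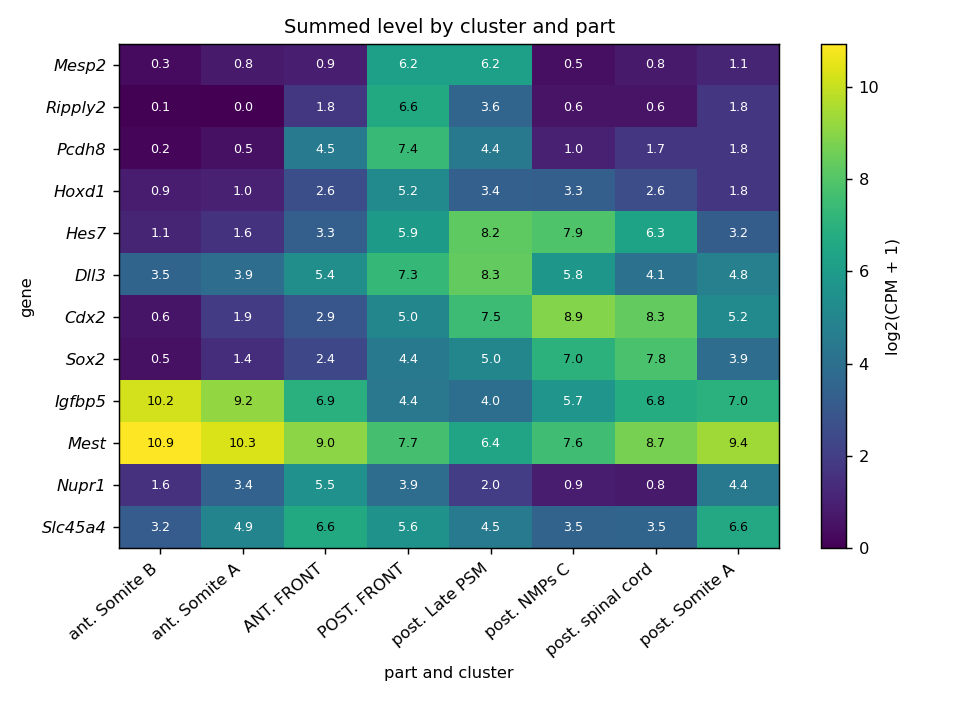
Log2(CPM + 1) of 12 genes in summed cells of 8 groups, with clusters of the anterior part on the left and of the posterior part on the right and the determination front (capitals) in the middle. Ripply2 and Pcdh8 stand highest in the posterior front, Hes7 and Cdx2 are higher in Late PSM and NMPs C, Igfbp5 and Mest are highest in anterior Somite B, and Nupr1 is highest in the anterior front of the groups plotted.

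The somite list had 16 tested genes, 5 past 2-fold higher in the anterior part (background 1.01%) and none lower, with a median log2 ratio of 0.46. These were Igfbp5, Fst, Bmp3 and the transcription factor genes Ebf2 (12.9 and 4.02 CPM) and Ebf3 (10.9 and 4.62 CPM). Igfbp5, Fst and Bmp3 are also among the genes named above for their ratio. The list was chosen with earlier results of these data known, so its count beside the background is a description only. Uncx, which marks the posterior compartment of each somite, had 100 CPM in anterior and 51.5 CPM in posterior cells, Pax3, the dermomyotome factor, had 141 and 87.6 CPM, and Cxcl12, a chemokine gene, had 88.1 and 48.8 CPM, all within 2-fold. Foxd1 (108 and 115 CPM) and Twist1 (68.1 and 84.2 CPM) were slightly lower on the anterior side. Somite genes were thus found on both sides of the cut, and their median ratio was nearer to 0 than those of the presomitic mesoderm (-1.62) and segment boundary (-1.90) lists.

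Signalling, matrix and guidance lists were set against 1.01% of all tested genes past 2-fold higher and 1.36% lower in the anterior part. Among 6 tested genes of the Hedgehog list, 1 was past 2-fold higher, the co-receptor Boc at 28.6 and 12.0 CPM. The co-receptor Gas1 had 224 and 147 CPM. Both are co-receptors, and the activity of the pathway was not tested. Of 6 tested BMP and TGF-beta genes, Fst and the ligand gene Tgfb2 (25.7 and 8.41 CPM) were higher, and Id1, a BMP target, was lower at 12.9 and 33.1 CPM. The BMP list thus had members on both sides. Of 11 matrix genes, Col26a1 was higher (86.1 and 42.9 CPM) and the laminin gene Lama1 was lower (13.8 and 31.7 CPM). The guidance genes Epha7 (11.5 and 4.62 CPM) and Nrp1 (17.1 and 7.39 CPM) were higher and Epha4 was lower among 10 tested.

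Other lists were described in the same way, against 1.01% of all tested genes past 2-fold higher and 1.36% lower in the anterior part. Of 19 tested glycolysis and hypoxia genes, 1 was past 2-fold, the glucose transporter gene Slc2a3 at 2.66 and 12.6 CPM, beside 156 CPM in posterior spinal cord cells. The abundant glycolytic enzymes were close. Gapdh had 5008 and 4414 CPM and Ldha had 1689 and 1780 CPM. Of 12 tested p53 targets, Bbc3 and Trp53inp1 (15.5 and 7.15 CPM) were past 2-fold higher, and Cdkn1a had 94.7 and 67.1 CPM. These 2 genes were a minority of the p53 list. Of 12 tested immediate early and stress genes, Junb was past 2-fold lower (3.33 and 10.9 CPM) and Hsp90aa1 had 1801 and 1836 CPM. Of 14 tested insulin-like growth factor and imprinted genes, Igfbp5 and Mest were higher, Plagl1 was lower (4.88 and 13.8 CPM), and the maternally expressed Meg3 had 1394 and 1113 CPM and H19 had 131 and 101 CPM.

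The remaining named genes lower in the anterior part were Rnd3 at 7.32 and 31.1 CPM, the intermediate filament gene Synm at 12.9 and 53.2 CPM and the adherens junction gene Ajap1 at 12.0 and 46.5 CPM. Posterior spinal cord cells had 13.1, 2.55 and 8.39 CPM of these. Over the 15 named genes lower in the anterior part, 13 had both whole libraries between the parts, against 6.14% of all tested genes. All 15 were further apart than the whole libraries were from each other. Genes named for a large ratio tend to meet both conditions, so these counts are a description only. Posterior Late PSM was higher than the posterior front for 5 of the 15. Markers of other cell types differed in level. The 15 endoderm markers summed to 11.5 CPM in anterior and 40.6 CPM in posterior cells, of which Cdx2 made up most, and the endothelial and blood markers summed to 26.8 and 39.1 CPM. The 21 spinal cord markers summed to 459 and 555 CPM, mostly from Ncam1 and Crabp1, which the mesoderm also expresses. The cardiac and head mesoderm markers summed to 313 and 259 CPM, nearly all from Prrx2 at 309 and 255 CPM.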

How the data were processed

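The members and gene lists were chosen with earlier results of these data known. The deposited table holds UMI counts per gene and cell; the authors aligned reads to mm10 with Cell Ranger 6.0 and filtered, clustered and named cells with Seurat 4.0.2, per the labels and the study's methods. The deposited annotation adds a percent of mitochondrial counts and S and G2/M scores per cell, of which only the phase call made from the scores was used. The authors removed cells with very low or very high UMI totals or an extreme mitochondrial share, and no caller of doublets was run here, since the upper limit served that purpose. Number of columns of per-sample values not used: 0.

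Raw counts were summed over the determination front cells of each library (1 library for each part) and scaled to CPM of all UMIs of those cells. Genes with at least 10 CPM in 1 part were compared by the ratio anterior over posterior, with 2-fold as the limit. In each direction the 15 genes with the largest ratio among those past 2-fold and at 30 CPM or more were named, without ribosomal protein and mitochondrial genes. For each list 2 to 6 members were named, those past 2-fold with the highest level first, then others by level. Intervals were exact (conditional binomial for ratios, Clopper-Pearson for shares), at 95%. For shares of cells each cell was thinned to 6000 UMIs. A count of 0 was given a floor of 3 counts. The ratio step was checked on simulated counts. Hoxd3, further list members beyond this rule and the comparisons with Somite A, Late PSM, NMPs C and spinal cord cells were chosen after values were seen. Sequences came from RefSeq (GRCm38.p6) and gene positions from GENCODE (GRCm38, the same build as mm10). Alternatives used edgeR 4.0.16 and DESeq2 1.42.0 only for scaling factors. Python 3.11.15 with scipy 1.17.1 was used.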

Additional observations from a re-analysis of the deposited data

Results flagged for a closer look

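Nupr1, Fst, Bbc3 and Slc45a4 were over 2-fold higher in anterior than in posterior determination front cells and lower in anterior than in posterior Somite A cells, and were listed because the direction differed between these clusters and the counting interval of the Somite A ratio lay below 1. Ablim1 (0.725) and Glipr2 (0.763) also had a Somite A ratio below 1, with intervals that reached past 1. The Somite A ratio, anterior over posterior, was 0.491 for Nupr1 (95% interval 0.300 to 0.855), 0.499 for Fst (0.382 to 0.663), 0.515 for Bbc3 (0.372 to 0.731) and 0.308 for Slc45a4 (0.244 to 0.392). Each side is 1 library and posterior Somite A holds 68 cells, so the difference between the clusters was not tested.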

How the results depend on the processing

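No paired analysis was possible because each part had 1 library. The counts of genes past 2-fold, 77 higher and 104 lower in the anterior part, became 1678 and 783 with no filter on low values and 10 and 30 at 50 CPM or more. They became 261 and 278 at 1.5-fold and 16 and 46 at 3-fold. Within phases they were 122 and 117 in G1, 169 and 196 in S and 152 and 162 in G2M, where fewer cells enter. Thinning each cell to 6000 UMIs gave 141 and 124. TMM factors gave 69 and 109, DESeq2 size factors 68 and 109, and leaving ribosomal protein and mitochondrial genes out of the total gave 112 and 124. The whole 120 h libraries were apart for 74 genes at 50 CPM or more, against 281. With cells over 1.5 times the mean UMI count left out, the cluster took up 5.81% of anterior and 14.1% of posterior cells.

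An alternative chosen after seeing the data compared all anterior cells with posterior cells that had no UMI of Mesp1, Mesp2 or Ripply2, and gave 52 and 74 genes. Pcdh8 then had a log2 ratio of -1.75, against -2.97, and Hes7 of -1.95, against -2.76. The 30 named genes kept their direction in 356 of 356 values, of which 18 were under 2-fold. Alternatives that changed only the filter repeated the main ratios of these genes. Those that changed only the scaling factors or the total moved all ratios by the same small amount. Neither kind could change a direction, so only the alternatives that changed the cells or the counts bear on it. The values nearest to 0 were 0.66 for Bmp3, 0.67 for Bbs9, 0.67 for Ablim1 and -0.67 for Rnd3 (log2). Over 12 alternatives the list medians ran between -1.81 and -1.05 for presomitic mesoderm, between -2.54 and -1.19 for segment boundary and between 0.02 and 0.63 for the somite list. Genes near 10 CPM rest on about 45 anterior UMIs, so the anterior library sets the precision.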
